A study of Mus musculus with 31 samples.

Results

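The mouse MHC class II gene cluster, here the 320 kb interval chr17:34200001-34520000 (genome build mm9), was examined in 26 lists of chromatin immunoprecipitation sequencing (ChIP-seq) peaks. The cluster holds H2-Ab1, H2-Aa and H2-Eb1 and was chosen by a fall of the cohesin subunit Rad21 in stimulated splenic B cells at the 10 kb bin that starts at 34430001, called the index bin below. Of 17059729 peaks on the main chromosomes in all lists, 4958 overlapped the interval, between 34 and 307 per list. Every peak that overlapped the interval counted as a member, and 13 to 46 members per list were among the 20000 strongest peaks of that list, called top peaks.

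All cells were mouse B cells deficient in AID, the enzyme that starts antibody class switching, and the labels give the strain C57BL/6 for all of them. NIPBL, which loads cohesin onto DNA, was mapped in splenic B cells kept 48 h with anti-CD40 and IL-4 (n = 3) or without stimulation (n = 3), and in the B lymphoma line CH12F3 kept 24 h with TGF-β added to anti-CD40 and IL-4 (n = 2) or without stimulation (n = 2). Rad21 was mapped in stimulated (n = 3) and unstimulated (n = 3) splenic B cells, in stimulated cells named i3CBEs (n = 3), and in stimulated (n = 4) and unstimulated (n = 3) CH12F3 cells, with the same treatments. Sample titles name the line CH12F3NCdel, and the labels expand neither that name nor i3CBEs, whose source they give as CH12F3. For the Rad21 samples of both lines 1 label field names splenic B cells, whereas the titles and the source name give the lymphoma line, which was followed. Nothing in the labels says that replicates came from different mice or cultures. The p-values below therefore reflect how far these samples vary among themselves, and that variation may be technical.

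MHC class II molecules are pairs of an alpha and a beta chain that display peptides from taken-up proteins to CD4+ T cells, and B cells carry them at rest. H2-Aa encodes the alpha chain and H2-Ab1 the beta chain of the I-A molecule, and H2-Eb1 encodes the beta chain of I-E. Cohesin is a ring of proteins that draws DNA into loops, which often end where CTCF is bound, and in human cells CTCF and cohesin sites between the class II genes have been linked to their transcription. In the RefSeq gene table (assembly GRCm38.p6) the order along the chromosome was H2-Oa, Brd2, H2-DMa, H2-DMb2, H2-DMb1, Psmb9, Tap1, Psmb8, Tap2, H2-Ob, Gm20506, H2-Ab1, H2-Aa, H2-Eb1, H2-Eb2, H2-Ea and Btnl2. The table lists H2-Ea as a transcribed pseudogene, and whether these cells carry I-E was not examined. H2-DMa, H2-DMb1 and H2-DMb2 encode the exchanger that loads peptides onto class II molecules, H2-Oa and H2-Ob encode its inhibitor, and Tap1, Tap2, Psmb8 and Psmb9 serve the class I pathway. That assembly differs from the build of the peaks, so which bin holds which gene was not worked out here.

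Class II promoters carry an X box and a Y box that are bound by RFX and NF-Y and draw in the coactivator CIITA. The 250 bases before the start sites of both genes with a RefSeq promoter among the 3 named members are shown. Each holds a core of both boxes. Capitals mark the X box core GCAAC and, after it, the Y box core CTGATTGG, an inverted CCAAT box; H2-Aa lies at chr17:34287824-34288073 on the minus strand and H2-Eb1 at chr17:34305617-34305866 on the plus strand of GRCm38.p6.
H2-Aa: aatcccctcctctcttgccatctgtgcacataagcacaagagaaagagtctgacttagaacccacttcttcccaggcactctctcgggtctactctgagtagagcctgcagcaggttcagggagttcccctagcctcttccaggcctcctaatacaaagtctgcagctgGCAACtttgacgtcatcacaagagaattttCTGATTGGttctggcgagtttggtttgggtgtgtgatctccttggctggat
H2-Eb1: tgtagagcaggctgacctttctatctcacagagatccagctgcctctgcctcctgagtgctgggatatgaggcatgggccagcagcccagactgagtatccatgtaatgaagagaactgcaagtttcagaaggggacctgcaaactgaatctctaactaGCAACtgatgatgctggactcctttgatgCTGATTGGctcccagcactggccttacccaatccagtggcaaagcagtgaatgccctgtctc
The cores lie 25 bases apart in H2-Aa and 24 bases apart in H2-Eb1. Both strands of all 32851 RefSeq promoters of 300 bases were searched, and 0.134% held CTGATTGG with GCAAC 10 to 40 bases before it on the same strand, whereas 4.10% held CTGATTGG alone or with it. Of 8 class II genes of the cluster with a promoter in the table, 4 held the pair: H2-Oa, H2-Aa, H2-Eb1 and H2-Eb2. A match describes letters only. The peaks could not be set beside these promoters across builds.

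The value used throughout is the percent of a 10 kb bin, or of the whole cluster, that is covered by a library's top peaks. Read depth is unknown, because no counts of reads come with the peaks. Full lists held 890499 to 1332862 peaks for NIPBL, 42659 to 271662 for Rad21 in the lymphoma lines and, unevenly, 149409 to 1236385 for splenic Rad21. Top peaks covered 0.194% to 0.645% of the genome, least in the Rad21 lists of i3CBEs and in the CH12F3 NIPBL lists of replicate 2. Those 2 NIPBL lists and all 16 Rad21 lists name a control, and the other NIPBL lists name none. In spleen, antibody and the naming of a control therefore cannot be told apart. CH12 lymphomas arose in a mouse with another MHC haplotype than C57BL/6, on whose genome mm9 is built, so cell type and sequence differences in the cluster cannot be told apart.

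Top Rad21 peaks covered little of the index bin in stimulated splenic B cells, whereas it was the bin of the cluster with the highest Rad21 coverage in unstimulated ones. The 10 lymphoma libraries had no top Rad21 peak there. Top Rad21 peaks covered 4.74%, 8.18% and 5.64% of it in stimulated splenic B cells, against 56.9%, 72.6% and 57.3% in unstimulated ones. The groups did not overlap, and the means were 6.19 ± 1.78% and 62.3 ± 8.97% (SD, n = 3 each). These values chose the cluster, so they are a description and carry no test.

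The peaks behind the values also differed. Each stimulated splenic library held 1 top Rad21 peak in the index bin, 474, 818 and 564 bp wide and all between 34436041 and 34437033. The unstimulated libraries held 3, 4 and 4 top peaks there, and the widest in each measured 3220, 3133 and 1850 bp. When overlapping top peaks of all 16 Rad21 lists were merged into sites, the stimulated peaks fell in the site 34435634-34437291, held by 3 of 3 stimulated and 3 of 3 unstimulated splenic libraries. The sites 34428331-34431478 and 34431690-34434909 were held by 0 of 3 stimulated and 3 of 3 unstimulated splenic libraries, and 34437528-34439162 by 0 of 3 stimulated and 2 of 3 unstimulated ones. Stimulated cells thus had top peaks at 1 of the 4 Rad21 sites of the bin. The authors' fold enrichment of the highest of these peaks was 8.70, 9.76 and 6.44 in the stimulated libraries, against 16.0, 13.9 and 7.84 in the unstimulated ones; it is each peak's own value in its own list.

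Weaker peaks remained in every group. With all deposited peaks, Rad21 covered 27.0%, 74.8% and 38.9% of the index bin in stimulated splenic libraries, against 79.2%, 76.0% and 59.1% in unstimulated ones, so that the groups overlapped. Likewise all Rad21 peaks covered 7.01% to 14.3% in i3CBEs, 6.09% to 35.6% in stimulated CH12F3 and 25.3% to 30.6% in unstimulated CH12F3, where top peaks covered none. The best placed of them stood at rank 22825 or lower in strength in all 10 lymphoma lists, just outside the top peaks in the nearest case.

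NIPBL was also lower at the index bin in stimulated splenic B cells. Coverage was 15.4%, 17.3% and 28.4% in stimulated splenic libraries, against 66.3%, 40.2% and 32.8% in unstimulated ones, with no overlap. The difference of -26.0 percentage points (SE 9.13) did not pass the test in limma, with an adjusted p of 0.358 over 18341 bins of the genome. Of 8 alternatives it passed in 2, with all deposited peaks (-20.7 points, limma adjusted p = 0.0106) and with lists cut to equal covered length (-28.5 points, limma adjusted p = 0.0214). With all deposited peaks the groups overlapped, at 33.24%, 49.85% and 68.06% in stimulated and 77.03%, 71.95% and 64.36% in unstimulated libraries. The other 6 alternatives did not pass, nor did any of the 6 fits that left out 1 library (limma adjusted p of 0.236 to 0.531). In CH12F3, NIPBL covered 17.6% and 8.13% of the bin after stimulation and 25.0% and 0% without it, and the groups overlapped.

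Ordered by mean, index bin coverage was highest for Rad21 in unstimulated splenic B cells (62.3%) and NIPBL in the same cells (46.4 ± 17.6%), whose libraries overlapped. NIPBL in stimulated splenic B cells followed (20.4 ± 7.02%), then NIPBL in stimulated CH12F3 (12.9 ± 6.71%, n = 2) and unstimulated CH12F3 (12.5 ± 17.6%, n = 2). These 3 groups overlapped each other in turn. Rad21 in stimulated splenic B cells (6.19%) lay within the range of unstimulated CH12F3 NIPBL and above the Rad21 libraries of i3CBEs and CH12F3, all at 0%.

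**Figure D1:**
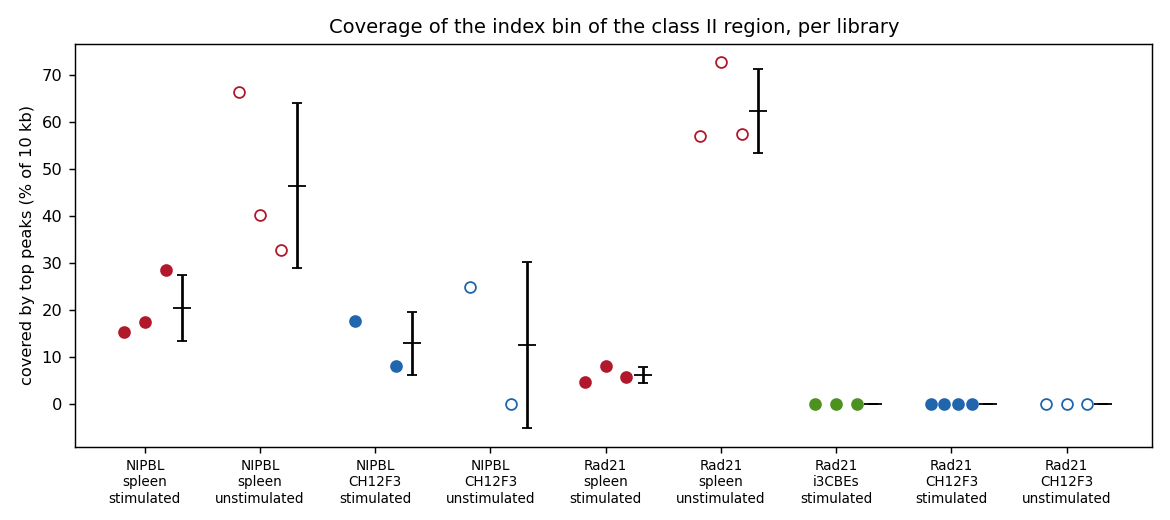
Percent of the index bin covered by top peaks (y axis) in each of the 26 libraries (points), by antibody, cell type and treatment (x axis); filled points are stimulated and open points unstimulated libraries, and black bars give the mean and SD. The 3 unstimulated splenic Rad21 libraries sit between 56.9% and 72.6%, and the 10 Rad21 libraries of i3CBEs and CH12F3 sit at 0%.

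Along the whole cluster, Rad21 coverage by top peaks in splenic B cells was lower after stimulation in the mean of each of the 22 bins covered in 2 or more splenic libraries. In some of these bins the groups did not overlap. Over all bins of the genome, 0.128% were called higher and 2.69% lower in this contrast; it chose the cluster, and nothing is read from the count. Rad21 covered 3.30%, 9.27% and 4.19% of the cluster in stimulated splenic libraries, against 15.9%, 14.6% and 15.9% in unstimulated ones. The difference in means was -9.88 points, and -4.55 points with lists cut to equal covered length. In the 320 kb next to the cluster on its lower-coordinate side, coverage was 1.81%, 3.00% and 1.61% in stimulated and 3.57%, 4.46% and 2.16% in unstimulated splenic libraries. In the 320 kb on the other side it was 0.947%, 2.13% and 1.12% in stimulated and 1.82%, 1.70% and 0.861% in unstimulated ones, and the groups overlapped on both sides. With all deposited peaks the fall was not uniform: cluster coverage was 11.7%, 45.1% and 30.5% in stimulated and 42.2%, 45.2% and 27.4% in unstimulated splenic libraries, with overlap. Means were then higher after stimulation in some bins, among them that at 34510001, with 33.8% in stimulated and 28.9% in unstimulated libraries, and that at 34340001, with 24.3% and 22.6%.

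Other bins had wide gaps too. The bin at 34400001 had 3.80%, 10.7% and 10.3% Rad21 coverage in stimulated splenic libraries, against 49.1%, 46.3% and 69.8% in unstimulated ones. The bin at 34280001 had none in the 3 stimulated libraries, against 34.9%, 17.6% and 20.7% in unstimulated ones. Unstimulated replicate 3 alone among the unstimulated libraries had top peaks in 5 bins. It had 36.4% in the bin at 34440001 and 32.3% in the bin at 34390001, where the other 2 unstimulated libraries had 0%, 54.8% at 34450001, 3.41% at 34290001 and 3.78% at 34460001, where they also had 0%. In the bin at 34420001, next to the index bin, stimulated libraries had 0% and unstimulated ones 1.54%, 16.7% and 48.5%.

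**Figure D2:**
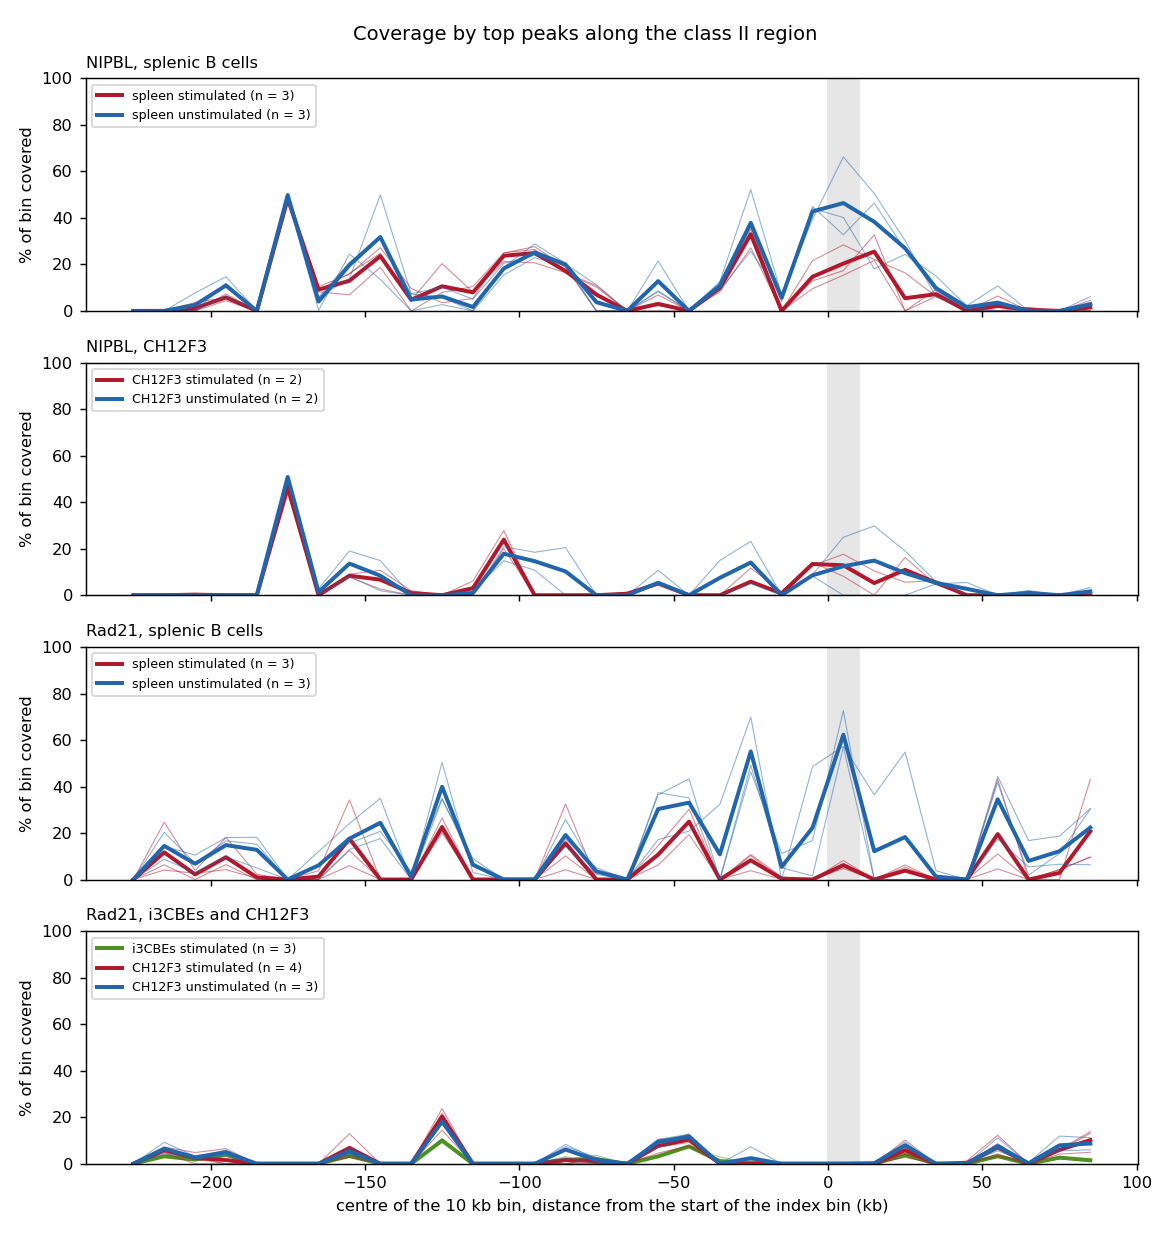
Percent of each 10 kb bin covered by top peaks (y axis) along the cluster, as distance of the bin centre from the start of the index bin in kb (x axis); thin lines are libraries and thick lines group means (red stimulated, blue unstimulated, green i3CBEs), and the grey band is the index bin. Splenic Rad21 is at 6.19% in stimulated and 62.3% in unstimulated cells in the grey band, and NIPBL averages 46.6% to 50.9% in the 4 NIPBL groups in its highest bin, at 34250001.

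By top peaks, NIPBL coverage was lower in stimulated than in unstimulated splenic B cells in the 2 bins just before the index bin. Of 25 bins tested, 2 were called lower and 0 higher, where 1.24% of all tested bins of the genome were called lower and 1.74% higher. Nothing is read from this count, since 1 of the 2 bins entered the fit through the unstimulated libraries alone. In the bin at 34420001 NIPBL covered 9.57%, 12.9% and 21.6% in stimulated splenic libraries, against 39.4%, 44.0% and 44.9% in unstimulated ones. The fall was 28.1 percentage points (difference -28.1, SE 3.48, limma adjusted p = 0.0151). In the bin at 34410001 NIPBL covered 0% in the 3 stimulated libraries, against 6.90%, 3.97% and 6.09% in the unstimulated ones (difference -5.65, SE 0.959). Without unstimulated splenic replicate 2 or 3 the bin at 34420001 had adjusted p-values of 0.0604 and 0.0558. The bin at 34410001 entered the fit through the unstimulated libraries alone, so nothing is read from its call. It was no longer called without any 1 of the stimulated replicates or without unstimulated replicate 3. In simulated data this fit called more unchanged bins than its threshold allows.

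Some bins that were not called also separated the groups, in both directions. The share of such bins over the genome was not worked out, so nothing is read from them as a set. On the other side of the index bin NIPBL at 34440001 had 21.7%, 32.8% and 22.1% in stimulated libraries, against 50.5%, 18.1% and 46.4% in unstimulated ones, which overlap. NIPBL at 34450001 had 0%, 0% and 16.4% in stimulated libraries, against 30.2%, 24.3% and 26.3% in unstimulated ones, without overlap (difference -21.5, SE 4.85, limma adjusted p = 0.107). Over the whole cluster NIPBL covered 8.93%, 10.5% and 10.6% in stimulated splenic libraries, against 16.8%, 11.7% and 12.6% in unstimulated ones. The means of 10.0 ± 0.941% and 13.7 ± 2.75% did not overlap in their libraries, with an exact two-sided permutation p of 0.1, the smallest that 3 against 3 libraries allow, and an adjusted p of 0.3 over 12 tests. In the 320 kb on the lower-coordinate side NIPBL covered 8.96%, 11.1% and 11.1% in stimulated and 9.89%, 8.17% and 7.44% in unstimulated splenic libraries, so the stimulated libraries were not the lower ones there.

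**Figure D3:**
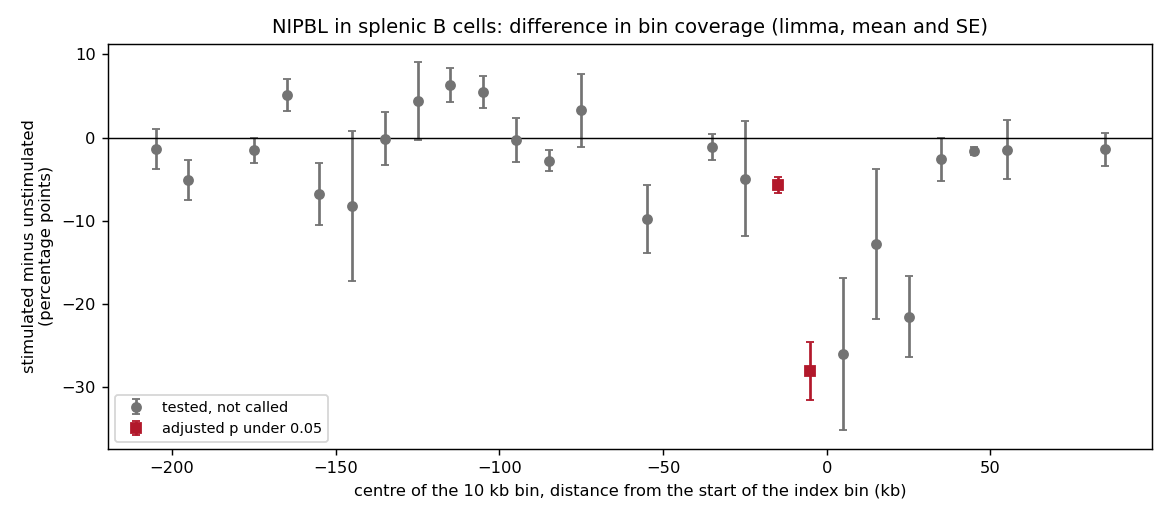
Difference in NIPBL coverage, stimulated minus unstimulated splenic B cells in percentage points (y axis, points with SE from limma), in the 25 tested bins by distance from the start of the index bin in kb (x axis). Red squares mark the 2 called bins, at -28.1 and -5.65 points, which are the 2 bins just before the index bin. The bin at -5.65 points entered the fit through the unstimulated libraries alone, and nothing is read from its call. The index bin itself is at -26.0 points with a wider error.

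The NIPBL bin with the highest coverage held no top Rad21 peak. The bin at 34250001 had NIPBL coverage of 48.1% to 48.5% in stimulated and 49.2% to 50.5% in unstimulated splenic libraries, and of 49.8% and 43.5% in stimulated and 51.2% and 50.5% in unstimulated CH12F3 libraries. The stimulated splenic libraries lay below the unstimulated ones by a mean of 1.54 points (difference -1.54, SE 1.52, limma adjusted p = 0.691). Rad21 top peaks covered 0% of it in all 16 libraries. By top peaks it was the highest NIPBL bin of the cluster in all 4 NIPBL groups. With all deposited peaks the index bin was higher in unstimulated splenic B cells (71.1% against 61.9%), and Rad21 then covered 31.7% to 42.6% of the bin at 34250001 in the same cells. Its top-peak site 34254856-34260028 was a peak of 4351 bp or wider in all 10 lists.

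Stimulation of CH12F3 called no bin of the cluster for either antibody. For NIPBL, 0 of 14 tested bins were called, as were 0 of 12325 bins in the genome (0.0% higher and 0.0% lower), where by unadjusted p (under 0.05) limma put 506 bins higher and 764 lower. In simulated data this fit of 2 against 2 libraries recovered none of the changed bins, so its count of 0 says nothing of whether bins changed. The largest difference without overlap was in the bin at 34330001, with 0% and 0% in stimulated and 18.5% and 10.8% in unstimulated CH12F3 libraries (adjusted p = 0.363). The bin at 34420001, which fell in spleen, had NIPBL coverage of 12.7% and 14.2% in stimulated and 8.90% and 8.23% in unstimulated CH12F3 libraries. The effect of stimulation there was 32.9 points lower in spleen than in CH12F3 (difference -32.9, SE 5.35), which did not pass the interaction test in limma (adjusted p = 0.0581). Over the cluster NIPBL covered 5.10% and 4.28% in stimulated and 9.01% and 3.56% in unstimulated CH12F3 libraries (exact permutation p = 1.0, where 0.333 is the smallest possible).

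Rad21 in CH12F3 showed no called bin with stimulation among 13 tested, nor any among 21545 in the genome (0.0% higher and 0.0% lower), where by unadjusted p (under 0.05) limma put 236 bins higher and 593 lower. None of the 13 bins separated the groups. Cluster coverage was 3.52%, 2.34%, 3.13% and 1.93% in stimulated and 2.91%, 2.93% and 3.68% in unstimulated CH12F3 libraries (exact permutation p = 0.514). The groups overlapped.

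In i3CBEs Rad21 peaks covered less of the cluster than in stimulated CH12F3, and no bin was called. Coverage of the cluster was 1.47%, 1.63% and 1.56% in i3CBEs, against 3.52%, 2.34%, 3.13% and 1.93% in stimulated CH12F3, without overlap (exact permutation p = 0.0571, the smallest possible, and 0.3 adjusted). Of 14 tested bins 0 were called, where the genome had 0.0138% called higher and 0.0644% lower in i3CBEs and by unadjusted p (under 0.05) limma put 288 bins higher and 4573 lower. In some bins all i3CBEs libraries lay below all stimulated CH12F3 libraries, and the share of such bins over the genome was not worked out. The bin at 34300001, the highest Rad21 bin in both, had 9.60%, 10.9% and 9.42% in i3CBEs, against 21.1%, 14.5%, 21.8% and 23.8% in stimulated CH12F3 (adjusted p = 0.172). The bin at 34510001 had 1.85%, 0.840% and 1.86%, against 13.8%, 8.88%, 13.1% and 4.96% (adjusted p = 0.119), and that at 34370001 had 3.36%, 3.00% and 3.25%, against 8.91%, 7.15%, 10.2% and 4.62% (adjusted p = 0.162). Top peaks also covered less of the whole genome in i3CBEs, 0.209% to 0.239% against 0.285% to 0.406%, and with lists cut to equal covered length the cluster difference shrank to -0.194 points, from -1.18.

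Between cell types, top peaks of both proteins covered more of the cluster in splenic B cells than in CH12F3 in the mean, before and after stimulation. They also covered more of the whole genome in spleen. For NIPBL the genome means were 0.521% in spleen against 0.243% in CH12F3 after stimulation, and 0.492% against 0.424% without it. For Rad21 they were 0.403% against 0.351% after stimulation and 0.501% against 0.3725% without it. Spleen minus CH12F3 was recomputed under 6 alternatives, among them lists cut to equal covered length. For NIPBL the cluster difference then ranged from 2.63 to 10.7 points without stimulation and from -0.365 to 5.66 after it. For Rad21 it ranged from 4.73 to 27.4 points without stimulation and from 0.592 to 19.8 after it. How far covered length by itself enters these differences cannot be read from the ranges. Rad21 covered 15.5 ± 0.748% of the cluster in unstimulated splenic B cells and 3.17 ± 0.436% in unstimulated CH12F3 (SD, n = 3 each), without overlap. After stimulation the values were 5.59 ± 3.22% in spleen (n = 3) and 2.73 ± 0.725% in CH12F3 (n = 4), which overlapped. The splenic values include those that chose the cluster, so no test of them is given. NIPBL covered 13.7 ± 2.75% in unstimulated splenic B cells (n = 3) and 6.28 ± 3.86% in unstimulated CH12F3 (n = 2), and 10.0 ± 0.941% in stimulated splenic B cells (n = 3) and 4.69 ± 0.582% in stimulated CH12F3 (n = 2). Both NIPBL comparisons separated the groups, at the smallest exact permutation p that 3 against 2 libraries allow, 0.2. No comparison of cluster coverage had enough libraries to reach a p of 0.05.

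**Figure D4:**
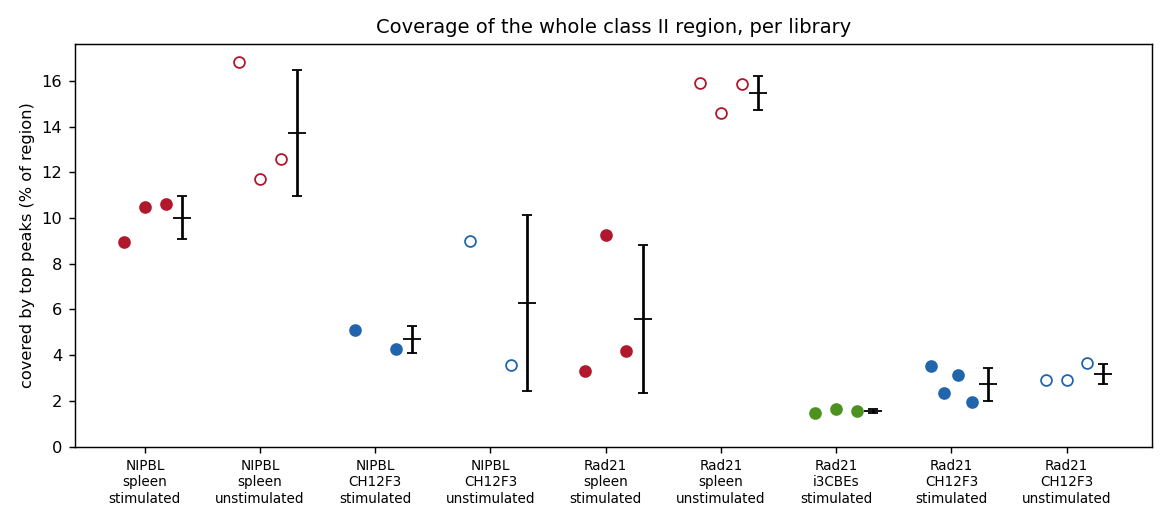
Percent of the 320 kb cluster covered by top peaks (y axis) in each library (points; filled stimulated, open unstimulated), by antibody, cell type and treatment (x axis), with mean and SD as black bars. Stimulated splenic Rad21 libraries lie between 3.30% and 9.27%, the unstimulated ones between 14.6% and 15.9%, and the i3CBEs libraries between 1.47% and 1.63%.

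By bin, 7 of 23 bins were called higher in unstimulated splenic B cells than in unstimulated CH12F3 for Rad21 and 0 lower, where 10.0% of all tested bins were called higher and 13.8% lower. Nothing is read from this count, because it holds the index bin, the splenic libraries chose the cluster, and several bins entered the fit through spleen alone. Of these, the bins at 34280001 (17.6% to 34.9% in spleen), 34310001 (3.02% to 8.98%) and 34240001 (4.93% to 18.2%) had no top Rad21 peak in any lymphoma library. The bin at 34400001 had 49.1%, 46.3% and 69.8% in unstimulated spleen, against 0%, 0% and 7.29% in CH12F3. No test of it is given, since the splenic libraries chose the cluster. Without unstimulated splenic replicate 3 the count of called bins was 16, and without unstimulated CH12F3 replicate 1, 2 or 3 it was 2, 3 and 2. After stimulation 2 of 16 bins were called higher in spleen and 0 lower, where 2.9% and 3.6% of all tested bins were called, and nothing is read from this count either. One of the bins was the index bin and the other that at 34400001, with 3.80%, 10.7% and 10.3% in stimulated spleen and 0% in the 4 stimulated CH12F3 libraries, which entered the fit through spleen alone. No bin was called without stimulated CH12F3 replicate 1, 2 or 3.

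For NIPBL, 6 of 21 tested bins were called higher in stimulated splenic B cells than in stimulated CH12F3 and 0 lower, beside a background of 20.3% higher and 1.31% lower. The bin at 34400001 had 35.1%, 36.7% and 27.2% in spleen and 0% and 11.7% in CH12F3 (limma adjusted p = 0.0267). This call did not hold in 5 of 8 alternatives (limma adjusted p of 0.0203 to 0.685 over the 8). Its difference of 27.2 points became 21.3 to 33.0 points leaving out 1 library. The other called bins entered the fit through spleen alone or nearly so, and nothing is read from their count. Among them the bin at 34330001 had 26.4%, 20.7% and 27.6% in spleen and 0% in both CH12F3 libraries, and that at 34340001 had 16.4%, 16.5% and 18.7% in spleen and 0% in both. The bin at 34390001 had 11.2%, 10.0% and 8.22% in spleen and 0% in both CH12F3 libraries, and that at 34260001 had 8.15%, 8.90% and 10.4% in spleen and 0.06% and 0% in CH12F3. Without stimulated CH12F3 replicate 2 the count was 3, and with all deposited peaks it was 0. Before stimulation 0 of 22 bins were called, where 0.0% of 16577 bins were called in either direction and by unadjusted p (under 0.05) limma put 1123 bins higher and 680 lower. In simulated data this fit recovered none of the smaller changes. In some bins the groups did not overlap, each time higher in spleen. Several of these had no top peak in CH12F3 and entered the fit through spleen alone. The share of such bins over the genome was not worked out, so nothing is read from them as a set. Among them, the bin at 34420001 had 39.4%, 44.0% and 44.9% in unstimulated spleen and 8.90% and 8.23% in unstimulated CH12F3 (limma adjusted p = 0.112). The index bin had 32.8% to 66.3% in spleen and 0% to 25.0% in CH12F3 (limma adjusted p = 0.471). The bin at 34400001 had 52.2%, 35.8% and 25.7% in unstimulated spleen and 23.2% and 4.97% in unstimulated CH12F3 (adjusted p = 0.547).

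NIPBL and Rad21 were also set side by side within each cell type and treatment, and their overlap was counted. NIPBL covered 13.7 ± 2.75% and Rad21 15.5 ± 0.748% in unstimulated splenic B cells, and NIPBL covered 10.0 ± 0.941% and Rad21 5.59 ± 3.22% in stimulated ones. Both pairs overlapped, and they carry no test, since splenic Rad21 chose the cluster. In CH12F3 the values were 4.69 ± 0.582% for NIPBL and 2.73 ± 0.725% for Rad21 after stimulation, without overlap (exact permutation p = 0.133, the smallest possible), and 6.28 ± 3.86% and 3.17 ± 0.436% without it, with overlap (exact permutation p = 0.4, where 0.2 is the smallest possible). Of the top Rad21 peaks in the cluster, 24.6 ± 2.15% overlapped a top NIPBL peak by 1 base or more in stimulated and 42.7 ± 1.33% in unstimulated splenic B cells (SD over 3 Rad21 libraries each). Over the whole genome the shares were 8.48 ± 1.08% and 13.8 ± 2.86%. In CH12F3 they were 17.5 ± 1.77% in stimulated (4 Rad21 libraries) and 13.6 ± 1.30% in unstimulated cells (3 Rad21 libraries), beside 4.73% and 8.42% genome-wide. No test was made of these shares, which rise with the length that the peaks cover.

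Rad21 peaks of the cluster merged into 49 sites, of which 8 were held by all 16 Rad21 libraries. The first 5 along the chromosome were 34213601-34216061, 34270995-34274420, 34305968-34309257, 34371023-34372795 and 34383485-34384734. A further 23 sites were held by splenic libraries only and 3 by lymphoma libraries only, each of these 3 in 1 library. In all, 12 sites were held by 1 library. All 4 sites of the index bin were among those held in spleen only. At the 8 common sites peaks were still of unequal width: at 34305968-34309257 the narrowest peak measured 266 bp and the widest 3161 bp. NIPBL peaks merged into 67 sites, 5 of them held by all 10 NIPBL libraries and 32 by 1 library. Splenic libraries alone held 34 and CH12F3 libraries alone 11, each of these 11 in 1 library. Shares of such sites over the genome were not worked out for either protein, so nothing is read from these counts. The site 34271800-34274422 of NIPBL lay within a Rad21 site held by all libraries but for its last bases.

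**Figure D5:**
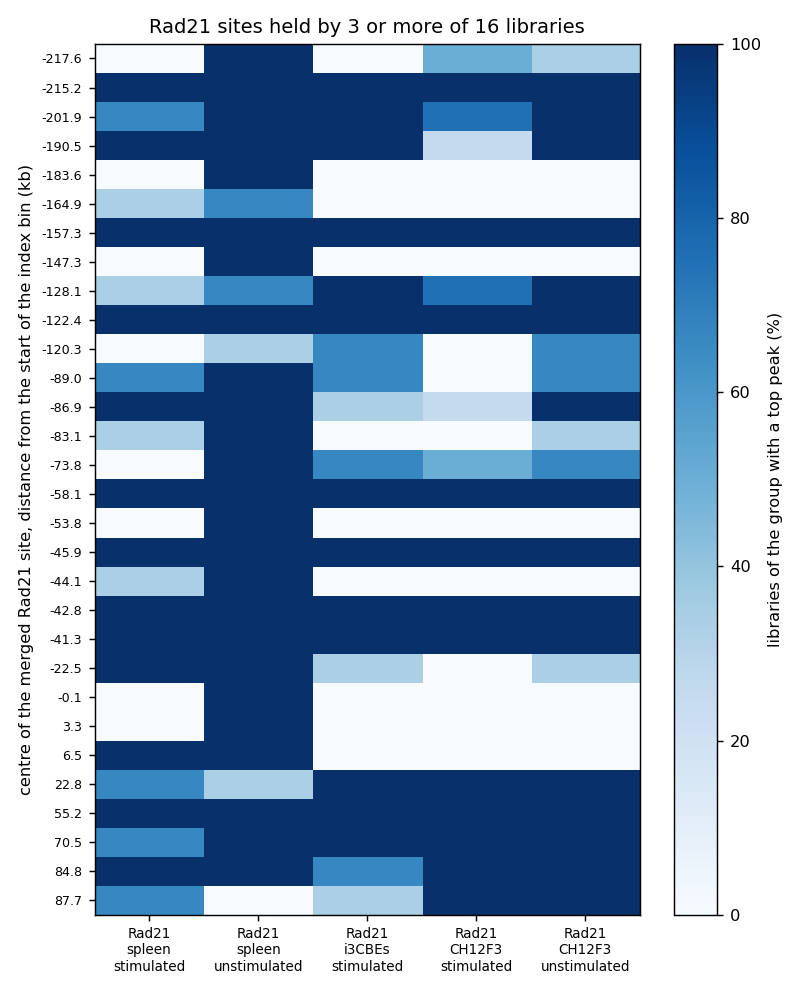
Share of the libraries of each group with a top Rad21 peak (colour, percent) at each merged site of the cluster held by 3 or more of 16 libraries; rows are sites by distance of their centre from the start of the index bin in kb, and columns are the 5 Rad21 groups. Of the 3 index bin sites drawn, the site 34435634-34437291 is held in 3 of 3 stimulated splenic libraries, and all 3 sites are held in 3 of 3 unstimulated ones.

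The bins of the genome outside the cluster that were most like the index bin over the 26 libraries, by mean absolute difference in coverage, were chr13:43880001-43890000 (6.08 points), chr5:122680001-122690000 (6.74), chr1:156940001-156950000 (7.30), chr2:38860001-38870000 (7.42) and chr13:112790001-112800000 (7.43). In the nearest, Rad21 averaged 0% in stimulated and 44.8% in unstimulated splenic libraries, and 0% in i3CBEs and CH12F3. NIPBL there averaged 25.4% in stimulated and 37.9% in unstimulated splenic libraries, and 0% and 10.5% in stimulated and unstimulated CH12F3. Since these bins were picked for likeness, their values carry no test.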

How the data were processed

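The submitters' processing notes name Bowtie2, MACS2 and the build mm9, per the labels, with versions and settings not given in the sources used here. As deposited by the authors, each library had 1 list of broad peaks of its own, with per peak a fold enrichment (a ratio), a -log10 p and a -log10 q, and a score that equals 10 times the -log10 q within 1. These deposited values served to order peaks inside 1 list, to filter them or to describe them. Of 31 samples, the 5 inputs were not analysed here.

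Lists of unequal length were made comparable by keeping, on the 21 main chromosomes, each list's 20000 top peaks by -log10 p. Coverage was computed in 264200 bins of 10 kb, of which 32 make up the cluster. Every bin of the genome with coverage in at least 2 of the compared libraries entered a limma fit (version 3.58.1 in R 4.3.3, with a mean-variance trend and a Benjamini-Hochberg adjusted p under 0.05), made separately for each pair of groups. The exact permutation tests of cluster coverage were two-sided and adjusted over 12 comparisons. Peaks were overlapped with bedtools 2.31.1. Python 3.11.15, pandas 2.3.3, numpy 2.4.6, scipy 1.17.1 and matplotlib 3.10.9 were used.

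The limma step was tested on simulated data, where most fits called more unchanged bins than the threshold allows, that of splenic NIPBL the most and that of Rad21 in unstimulated spleen against CH12F3 next. The fit of NIPBL in CH12F3 recovered no changed bin. Same-numbered Rad21 libraries of CH12F3 deviated together across the genome's bins (correlations 0.423, 0.651 and 0.376). For replicate 1 the closest partner was replicate 3, however, so the numbers are not shown to pair all these libraries. Fits of this comparison with a replicate block called 0 bins of the cluster too. Other groups had correlations of 0.1 or less or only 2 pairs.

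The cluster, the lists and the tests were chosen with earlier results of these data known. The text may name any bin of the cluster; it gives the index bin in all groups, up to 5 called bins per comparison or up to 3 non-overlapping ones where none was called, up to 5 sites held by the most libraries and those of the index bin, and the 5 bins most like it. The bins at 34440001, 34450001 and 34250001, and the interaction test, were added after their values were seen. Alternatives were other numbers of top peaks, all peaks, a -log10 q of 5 or more, equal covered length, other filters and fits, a replicate block and leaving out each library.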

Additional observations from a re-analysis of the deposited data

Results flagged for a closer look

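In stimulated CH12F3 (n = 4), a single library had top Rad21 peaks in 3 bins where the other 3 libraries had 0: replicate 1 had 6.47% in the bin at 34230001 and 6.39% in that at 34340001, and replicate 3 had 1.23% in that at 34470001. With the other libraries all at 0, any covered library stands apart, so the mark says no more than that.

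NIPBL in the bin at 34420001 fell with stimulation in spleen, by -28.05 percentage points, and differed by 4.88 points in CH12F3, a change that did not pass (limma adjusted p = 0.913). The test of the difference itself gave an adjusted p of 0.0581 in limma.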

How the results depend on the processing

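Coverage of the cluster: 12 comparisons gave 142 values under the alternatives, of which 133 kept their direction; none could have reached a p of 0.05. Stimulated minus unstimulated NIPBL in CH12F3 was 0.364 points with all deposited peaks, 1.01 with only peaks whose -log10 q reached 5 and 0.594 at equal covered length, and -4.32 to 1.14 leaving out 1 library. Rad21 in CH12F3 gave 0.150 with 10000 top peaks and 0.111 at equal covered length. NIPBL in stimulated spleen minus CH12F3 gave -0.365 at that q, and NIPBL minus Rad21 in unstimulated spleen 4.86 with 10000 top peaks and 0.502 at that q. Splenic Rad21, which carries no test, gave -3.47 with 10000 and -19.9 with 40000 top peaks, -16.9 at that q and -4.55 at equal covered length.

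Called bins moved more: 49 of 111 counts differed over 1.5 times from those reported. For NIPBL in spleen, stimulated against unstimulated, 4 bins were called with 10000 top peaks, 0 with 40000, 0 at that q, 0 with the replicate block and 1 with all groups in 1 fit, and 1 to 2 leaving out 1 library (1 without stimulated replicate 1 or 2 or unstimulated replicate 2 or 3). For i3CBEs against CH12F3, 2 were called at equal covered length and 0 to 1 leaving out 1 library (1 without CH12F3 replicate 4). For NIPBL in unstimulated spleen against CH12F3, 4 were called with 10000 top peaks, 4 with all peaks, 4 at that q, 1 at equal covered length and 1 in 1 fit, and 0 to 3 leaving out 1 library (3 without CH12F3 replicate 1). For NIPBL in stimulated spleen against CH12F3, the counts were 3 with 10000, 3 with 40000, 0 with all peaks, 0 at that q, 1 at equal covered length, 0 with the replicate block and 1 in 1 fit, and 3 to 7 leaving out 1 library. For Rad21 in unstimulated spleen against CH12F3 they were 4 with 10000, 13 with 40000, 0 at that q, 1 at equal covered length, 4 with bins covered in 1 or more libraries and 14 in 1 fit, and 2 to 16 leaving out 1 library. For Rad21 in stimulated spleen against CH12F3 they were 1 with 10000, 0 with 40000, 1 with all peaks, 0 at that q, 1 at equal covered length, 0 with the replicate block, 0 with bins covered in 1 or more libraries and 0 in 1 fit, and 0 to 3 leaving out 1 library (0 without CH12F3 replicate 1, 2 or 3; 1 without CH12F3 replicate 4 or spleen replicate 2 or 3). The cause was not tested.

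Of 273 values for single bins, 137 kept direction and side of the threshold, 121 were no longer called, 4 became called and 11 changed sign. The index bin for NIPBL in CH12F3 gave -0.46 with 40000 top peaks, -3.41 at that q and -12.1 to 12.9 leaving out 1 library (-4.35 without stimulated replicate 1, -12.1 without unstimulated replicate 2). For NIPBL in stimulated spleen minus CH12F3 it gave -1.90 with 10000, -3.67 with all peaks, -6.87 at that q and -12.9 at equal covered length, and the bin at 34390001 gave -10.2 with all peaks and -13.5 at that q. The bin at 34400001 for Rad21 in stimulated spleen minus CH12F3 gave -2.49 with 40000. The bin at 34420001 for splenic NIPBL had adjusted p-values of 0.0034 to 0.384 over its alternatives, 0.169 with the replicate block. Its same-numbered libraries did not deviate together (correlations -0.099, -0.018 and -0.038), so the numbers do not pair them. The share of top Rad21 peaks overlapping NIPBL was 14.1% and 29.3% in stimulated and unstimulated spleen and 16.0% and 13.6% in stimulated and unstimulated CH12F3 when 50% of the peak had to overlap, and 79.4%, 94.9%, 89.0% and 74.6% in the same groups with all NIPBL peaks. Peak lists hold no depth, so a bin without a top peak is not shown to be free of the protein.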
